A study of Mus musculus with 6 samples.

Results

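Btg1, an antiproliferative gene that glucocorticoids induce, stood out in the comparison of Pla2g4e knockout (KO) with wild-type (WT) prefrontal cortex, and the question asked here was whether other genes under the same hormone shared its difference. The set held 9 genes of the 56923 listed: the 2 corticosteroid receptors Nr3c1 and Nr3c2, and 7 genes known to be induced by the hormone, namely Fkbp5, Sgk1, Tsc22d3, Zbtb16, Plin4, Cdkn1a and Btg1. They were chosen by function, matched by gene identifier, and all 9 passed the filter on low counts (19084 genes tested). Btg1 was picked for its difference between KO and WT in these same 6 libraries, so its values are given as a description with no test. RNA was sequenced from 3 prefrontal cortex samples of KO mice and 3 of WT mice. KO mice carried the constitutive Pla2g4e tm2a allele on the C57BL/6N-A tm1Brd background in all cells, a LacZ gene trap that is predicted to give a null allele by splicing. WT mice are given as wild type. The labels give no age, sex, litter or treatment, and nothing in them says how time of day or handling before tissue collection was arranged.

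Corticosterone, the main glucocorticoid of the mouse, enters cells and binds 2 related nuclear receptors: the glucocorticoid receptor (Nr3c1) and the mineralocorticoid receptor (Nr3c2). The unbound glucocorticoid receptor is held in the cytoplasm by heat shock proteins, and after binding it moves to the nucleus and attaches to palindromic DNA elements near its target genes. Fkbp5, Sgk1, Tsc22d3 and Zbtb16 are widely used in brain as readouts of hormone exposure, which varies through the day and with stress. In bulk tissue, fewer cells of a type and less RNA per cell cannot be told apart.

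Each library held between 11792463 and 14594230 counted fragments, the largest total being that of KO replicate 1. The 2 replicates numbered 1 stood apart in sex-linked expression: Xist, the RNA of the inactive X chromosome, was at 1390 CPM (its fragments as a share of the library's counted fragments, brought to a common total) in KO replicate 1 and at 969 CPM in WT replicate 1, against at most 0.246 CPM in the other 4 libraries, whose Y-linked genes averaged 45.4 to 47.6 CPM. Pla2g4e, the targeted gene, had 88, 97 and 102 fragments in the KO libraries and 100, 138 and 168 in the WT libraries, and the library labelled WT replicate 1 was inside the range of the KO libraries. Its log2 fold change (KO over WT) was -0.55 (SE 0.21). The position of fragments within the gene was not analysed here. Markers of cortical tissue were present: the 8 cortical excitatory neuron markers summed to 1680 to 2120 CPM in KO and 2020 to 2320 CPM in WT. The 10 striatal markers, genes of a neighbouring structure, summed to 343 to 451 CPM in KO and 256 to 429 CPM in WT. KO replicate 1 also stood apart in markers of the olfactory bulb, a structure in front of the prefrontal cortex. The 10 markers, listed after values of some of them were seen, summed to 466 CPM in KO replicate 1, to 128 and 94.3 CPM in KO replicates 2 and 3, and to 133, 49.3 and 95.3 CPM in WT replicates 1 to 3. Omp, which marks the axons of olfactory sensory neurons, was at 18.9 CPM in KO replicate 1 and at 0.164 to 2.35 CPM in the other 5 libraries. Of the 10, S100a5 and Eomes had no fragment in WT replicate 2, and none was at 0 in the other 5 libraries. No gene passed an adjusted p of 0.05 in limma-voom (0.0% of 19084), and 1492 genes (7.82%) had an unadjusted p under 0.05.

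Levels per transcript length were compared in WT as CPM per kilobase of exon (RPKM, mean ± SD, n = 3). Nr3c1 was the highest of the 9 at 13.8 ± 0.38 RPKM. Sgk1 followed at 10.9 ± 0.508 RPKM, Tsc22d3 at 10.7 ± 2.64, Zbtb16 at 9.49 ± 4.17, Cdkn1a at 7.04 ± 2.91 and Nr3c2 at 5.95 ± 0.399. Btg1 was at 3.0 ± 0.506 RPKM, Fkbp5 at 2.85 ± 0.791 and Plin4 lowest at 0.305 ± 0.0866. Among neighbours in this order, the WT ranges did not overlap between Nr3c1 and Sgk1, between Nr3c2 and Btg1, or between Fkbp5 and Plin4. The other neighbours overlapped.

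Btg1, a member of the BTG/TOB family that slows cell division and binds the mRNA deadenylation machinery, was higher in each KO library than in any WT library. Its level (ENSMUSG00000036478.9, chromosome 10, 96452868 to 96458671, plus strand, GRCm39) was 28.3, 21.9 and 22.1 CPM in KO replicates 1 to 3 and 15.3, 13.5 and 18.8 CPM in WT replicates 1 to 3. KO replicate 1 was the highest library, and the other 2 KO libraries were close to each other and above the WT range. The means were 24.1 ± 3.60 CPM in KO and 15.8 ± 2.67 CPM in WT (SD, n = 3), a log2 fold change of 0.61 (SE 0.14). Without KO replicate 1 the value was 0.48 (SE 0.14), and over 17 alternative settings it ran from 0.46 to 0.74. Groups that do not overlap, with KO higher, were found for 1282 of 19084 genes (6.72%), and Btg1 was the only one of the 9 genes with this pattern. Since Btg1 was selected on this contrast, nothing is read from that count.

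**Figure D1:**
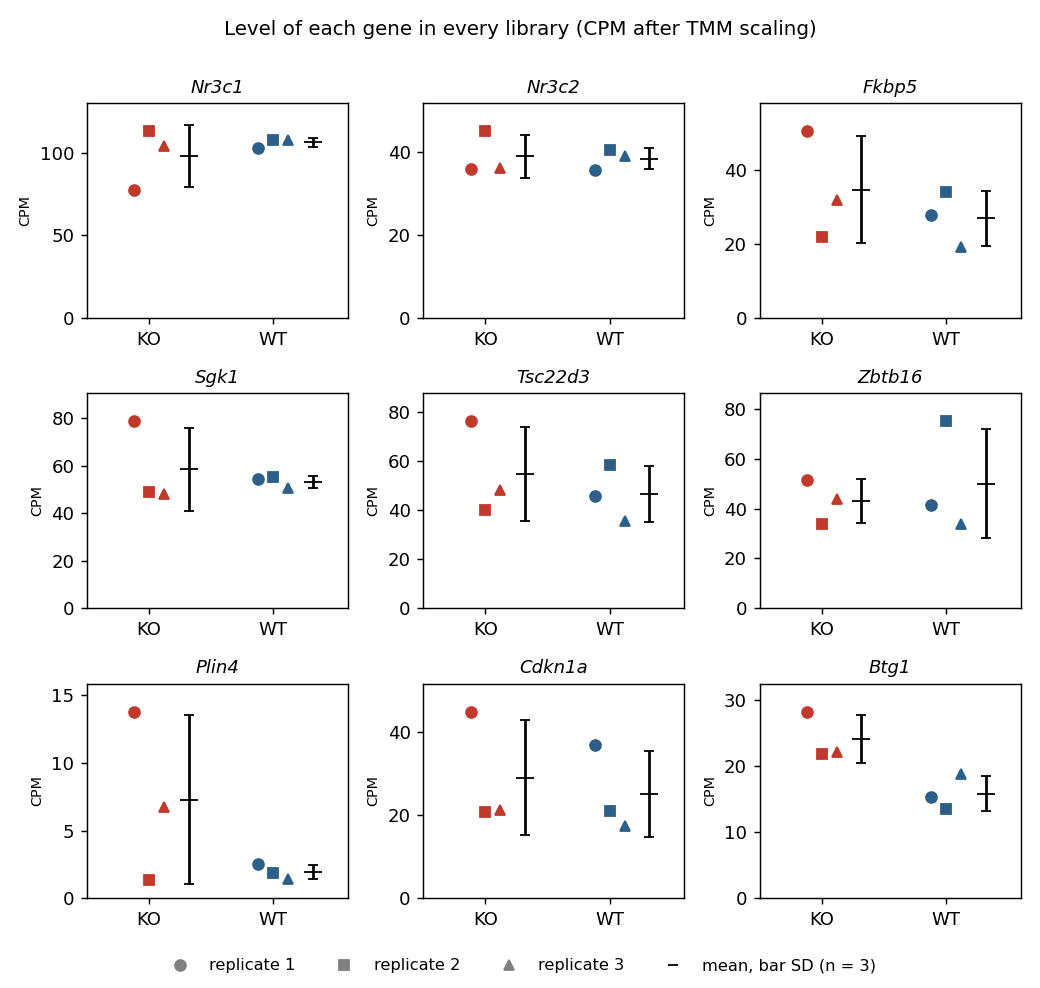
Level of each of the 9 genes in CPM (vertical axis, from 0) in the KO and WT libraries, with the symbol giving the replicate number and the black bar the mean and SD of 3 libraries. KO and WT points separate only for Btg1, which was selected on this contrast. Fkbp5, Sgk1, Tsc22d3, Plin4 and Cdkn1a each have their highest point in KO replicate 1.

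The receptors did not differ between the groups beyond their spread. Nr3c1 (ENSMUSG00000024431.16, chromosome 18, 39543598 to 39652474, minus strand) had 77.3, 113 and 104 CPM in the KO libraries against 103, 108 and 108 CPM in the WT libraries. The lowest library was KO replicate 1, and the other 5 lay within a narrow band. For KO over WT, the log2 fold change was -0.14 (SE 0.11, adjusted p = 0.74 in limma-voom) with a 95% interval of -0.39 to 0.10, and without KO replicate 1 it was 0.02 (SE 0.08). The difference of KO replicate 1 from the mean of the other 5 libraries was -0.47 log2 units, and 1218 of the 19084 genes had a lower difference. KO replicate 1 was the lowest library for 19.8% of all genes tested.

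Nr3c2, the mineralocorticoid receptor (ENSMUSG00000031618.14, chromosome 8, 77626070 to 77971641, plus strand), had 36.0, 45.1 and 36.2 CPM in the KO libraries against 35.7, 40.7 and 39.2 CPM in the WT libraries. The groups overlapped, and KO replicate 1 was not set apart from the rest. The difference was 0.01 on the log2 scale (SE 0.10), with a 95% interval of -0.21 to 0.23. Per length, Nr3c1 exceeded Nr3c2 by 1.81, 2.1 and 2.42 times in KO and by 2.43, 2.23 and 2.32 times in WT. The ratio was thus lowest in KO replicate 1, where Nr3c1 itself was lowest.

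Fkbp5, a co-chaperone that lowers the hormone affinity of the glucocorticoid receptor and is itself induced by it, differed more between libraries of a group than between groups. Its level (ENSMUSG00000024222.18, chromosome 17, 28618068 to 28736501, minus strand) was 50.5, 21.8 and 31.9 CPM in the KO libraries against 27.9, 34.0 and 19.1 CPM in the WT libraries. KO replicate 1 was 1.49 times the next highest library, while KO replicates 2 and 3 were inside the WT range. The means were 34.7 ± 14.6 CPM and 27.0 ± 7.49 CPM, with a log2 fold change of 0.35 (SE 0.26, adjusted p = 0.725, limma-voom). Without KO replicate 1 it was 0.02 (SE 0.20). The library labelled WT replicate 1, which also had high Xist, was in the middle of the WT values.

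Tsc22d3 encodes GILZ, an anti-inflammatory leucine zipper protein induced by glucocorticoids. Its level (ENSMUSG00000031431.14, chromosome X, 139440277 to 139501408, minus strand) was 76.1, 39.8 and 48.1 CPM in the KO libraries against 45.6, 58.5 and 35.6 CPM in the WT libraries. The order of the 6 libraries was the same as for Fkbp5, with KO replicate 1 first and WT replicate 3 last. On the log2 scale KO minus WT was 0.22 (SE 0.21, adjusted p = 0.781, limma-voom) with all libraries and -0.06 (SE 0.16) without KO replicate 1. The groups overlapped.

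Zbtb16 encodes PLZF, a zinc finger repressor whose mRNA responds strongly to glucocorticoids in many tissues. It had 51.7, 34.0 and 43.8 CPM in the KO libraries against 41.5, 75.1 and 33.7 CPM in the WT libraries (ENSMUSG00000066687.6, chromosome 9, 48565597 to 48747522, minus strand). Here WT replicate 2 was the highest and KO replicate 1 the second, and the WT range enclosed all 3 KO values. The log2 fold change was -0.13 (SE 0.23, adjusted p = 0.889, limma-voom). It was -0.28 (SE 0.24) without KO replicate 1 and 0.20 without WT replicate 2.

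Sgk1, a serum and glucocorticoid regulated kinase that acts on ion channels and transporters, had 78.6, 48.8 and 47.9 CPM in the KO libraries against 54.3, 55.0 and 50.4 CPM in the WT libraries (ENSMUSG00000019970.16, chromosome 10, 21758083 to 21875802, plus strand). KO replicate 1 was above all other libraries, and the other 2 KO libraries were below all 3 WT libraries. The log2 fold change was accordingly 0.11 (SE 0.15, adjusted p = 0.859, limma-voom) with KO replicate 1 and -0.14 (SE 0.09) without it. WT libraries varied by 1.09 times from lowest to highest, the second smallest ratio of the 9 genes after that of Nr3c1, at 1.05.

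The start-proximal sequence of Sgk1 holds the palindrome that the receptor is known to bind, and it is shown beside windows of Tsc22d3, whose levels varied with those of Fkbp5, and of Btg1, the gene that separated the groups. Windows of 300 bases, from 250 before to 50 after each annotated start, were taken from RefSeq on GRCm38.p6, an assembly other than that of the counted genes. Windows of 7 of the 9 genes, 15 in all, were searched, and none of Nr3c1 or Zbtb16. The full element searched was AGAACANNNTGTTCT, and both strands were covered since it is its own reverse complement. It was found in 3 of 32851 mouse windows (0.00913%), and of the 15 windows of these genes only in 1 of the 6 of Sgk1, at positions -189 to -175 from the start. A looser core, GNACANNNTGTNC, which overlaps the full element, occurred in 156 windows (0.475%) and in no other window of these genes. The hexamer AGAACA on either strand, a single arm of the palindrome, which is also part of the full element, occurred in 19.0% of all windows and in 4 windows of these genes, 3 of Sgk1 and 1 of Tsc22d3. Capitals mark the full element and hexamers in the 250 bases before the start, written 5′ to 3′ on the gene's strand: Sgk1 at chr10:21993640-21993889 (plus), Tsc22d3 at chrX:140600523-140600772 (minus) and Btg1 at chr10:96616751-96617000 (plus).
Sgk1: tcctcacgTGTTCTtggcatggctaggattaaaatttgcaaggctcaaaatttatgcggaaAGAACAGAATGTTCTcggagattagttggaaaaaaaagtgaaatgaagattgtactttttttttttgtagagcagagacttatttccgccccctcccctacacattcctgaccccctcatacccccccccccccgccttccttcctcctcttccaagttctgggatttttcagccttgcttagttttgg
Tsc22d3: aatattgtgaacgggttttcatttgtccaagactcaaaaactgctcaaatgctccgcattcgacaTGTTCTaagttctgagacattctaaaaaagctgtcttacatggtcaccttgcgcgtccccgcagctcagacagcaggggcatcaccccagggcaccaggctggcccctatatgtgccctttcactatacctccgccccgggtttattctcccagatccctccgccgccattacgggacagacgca
Btg1: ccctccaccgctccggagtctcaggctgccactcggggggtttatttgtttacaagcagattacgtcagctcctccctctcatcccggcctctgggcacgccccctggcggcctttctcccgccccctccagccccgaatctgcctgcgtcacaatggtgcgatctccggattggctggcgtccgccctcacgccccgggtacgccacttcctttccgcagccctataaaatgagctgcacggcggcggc
The Tsc22d3 window holds a single hexamer, at positions -185 to -180, and the Btg1 window holds none of the 3 motifs. A match describes letters in this window alone, binding was not measured here, and elements farther from the start were not searched.

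Plin4, a coat protein of lipid droplets whose mRNA is induced by glucocorticoids, had the largest fold change of the 9 genes and the widest spread. Its level (ENSMUSG00000002831.15, chromosome 17, 56407591 to 56416803, minus strand) was 13.8, 1.34 and 6.72 CPM in KO, from 204, 16 and 86 fragments. In WT it was 2.51, 1.88 and 1.41 CPM, from 32, 23 and 18 fragments. KO replicates 1 and 3 were above all WT libraries, but KO replicate 2 was below all of them. The log2 fold change was 1.49 (SE 0.77, adjusted p = 0.642, limma-voom), with a 95% interval of -0.19 to 3.18. Without KO replicate 1 it was 0.70 (SE 0.53). Without KO replicate 2 it was 2.36 (SE 0.39, adjusted p = 0.664). The lowest adjusted p of Plin4 over the 17 alternatives was 0.0885, and for the other 7 genes tested it was 0.496 or above.

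Cdkn1a encodes p21, an inhibitor of cyclin-dependent kinases that is under the control of p53 as well as of glucocorticoids. Its level (ENSMUSG00000023067.15, chromosome 17, 29309950 to 29319701, plus strand) was 44.8, 20.7 and 21.2 CPM in the KO libraries against 36.8, 21.0 and 17.3 CPM in the WT libraries. The 2 high libraries were the replicates numbered 1, the same 2 that had high Xist, and the other 4 were close together. The log2 fold change was 0.21 (SE 0.30, adjusted p = 0.853, limma-voom) and -0.18 (SE 0.23) without KO replicate 1. In the 4 libraries with Y-linked expression it was 0.14 (SE 0.13). Whether the sex-linked split bears on Cdkn1a was not tested.

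**Figure D2:**
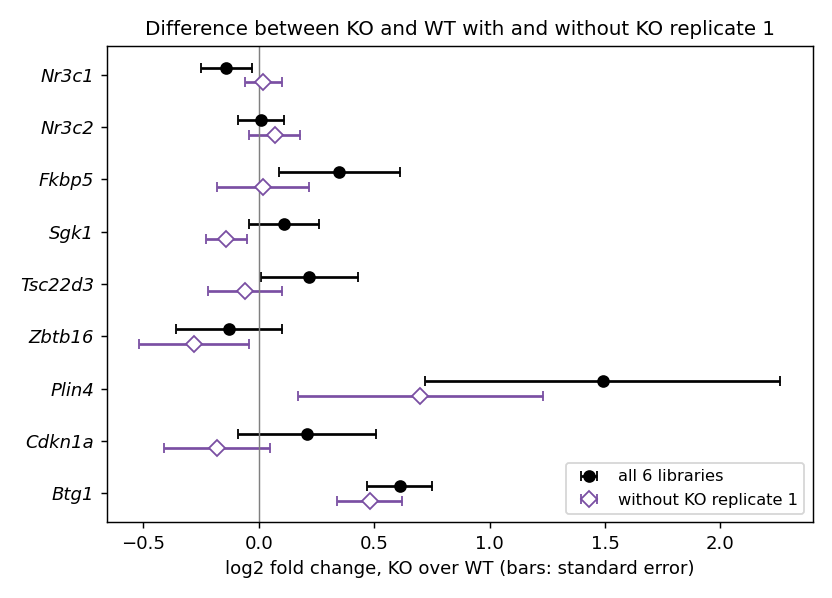
Log2 fold change, KO over WT (horizontal axis), with its standard error, from limma-voom on all 6 libraries (filled circles) and without KO replicate 1 (open diamonds). Fkbp5 (0.35 and 0.02), Tsc22d3 (0.22 and -0.06), Sgk1 (0.11 and -0.14) and Cdkn1a (0.21 and -0.18) move near or below 0. Btg1 (0.61 and 0.48) was selected on this contrast, so its values are a description and are not set against the others.

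The other 8 genes gave no difference that passed adjustment. In no alternative did any of them pass the adjusted threshold, which no gene of the 19084 passed in the main fit. None had KO and WT libraries that did not overlap, against 6.72% of all genes with KO higher and 6.29% with KO lower. Over 8 genes that is near the share of all genes, so nothing is read from it. Of these 8, 6 had a log2 fold change above 0 with a median of 0.16, against 9899 of 19084 genes (51.9%) and a median of 0.01 over all genes. Without KO replicate 1, 4 of 8 were above 0 with a median of -0.02, against 51.3% of the 18701 genes then tested. Leaving out WT replicate 3 gave 5 of 8 and a median of 0.03, while leaving out KO replicate 2 gave 6 of 8 and 0.30, and leaving out WT replicate 2 gave 7 of 8 and 0.16.

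KO replicate 1 was the highest library for 6 of the 9 genes, and for 5 of the 6 hormone-induced genes other than Btg1, against 4221 of 19084 genes (22.1%). The gap of that library to the mean of the other 5 was 2.58 log2 units for Plin4, and 82 of the 19084 genes had a larger one. For Cdkn1a the gap was 0.99 with 905 genes larger, for Fkbp5 0.94 with 987 larger, and for Tsc22d3 0.76 with 1407 larger. Sgk1 had a gap of 0.62 and Zbtb16 of 0.25. Btg1 had a gap of 0.65, and its other 2 KO libraries were also above WT. Since Btg1 was selected on that difference, it is not set against the other 8 genes here. Over the 9 lists of cell markers, the median deviation of that library from the 6-library mean ran from -0.46 log2 units for 5 blood cell markers and -0.34 for 8 cortical excitatory neuron markers to 0.19 for 8 astrocyte markers and 0.31 for 4 choroid plexus markers. The other 5 lists were between -0.08 and 0.02. For the 10 olfactory bulb markers it was 2.36, against 0.01 and -0.38 in KO replicates 2 and 3 and 0.35, -1.74 and -0.44 in WT replicates 1 to 3. The part of olfactory bulb RNA in the high values of KO replicate 1 was not tested. Astrocyte markers summed to 4780 to 5290 CPM in KO and 4510 to 5250 CPM in WT, and choroid plexus markers to 6.62 to 14.8 and 7.3 to 34.6 CPM. Single markers had gaps as large as those of the hormone-induced genes. Of these, 2 were picked after their values were seen. Aqp1, a water channel listed with the choroid plexus markers, was 3.0 log2 units above the mean of the other 5 libraries in KO replicate 1. Gad1, a GABA-synthesizing enzyme, was 0.98 log2 units above it. Other members of their lists went both ways. Of the choroid plexus markers, Clic6 had a gap of 1.14, but Ttr had -1.65 and Kl -0.39. Aqp1 was lowest in WT replicate 2, at 0.327 CPM, the library where Ttr was highest, at 26.8 CPM. The 8 general neuron markers, Gad1 among them, had a median gap of -0.07. Gad2, the other GABA-synthesizing enzyme of that list, had a gap of 0.46 and was also highest in KO replicate 1. No marker was at 0 in every library, and the part of other cells in the levels of the 9 genes was not tested.

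Among the hormone-induced genes, Fkbp5 and Tsc22d3 varied together from library to library. Log2 levels of Fkbp5 and Tsc22d3 correlated over the 6 libraries with Pearson's r = 0.982 (exact permutation test, two-sided, p = 0.00139, the smallest that 6 libraries allow, Benjamini-Hochberg adjusted over 8 relations 0.0111) and Spearman's rho = 1.0 (exact permutation p = 0.00278, adjusted 0.0222). Without the 2 libraries farthest from the median of Fkbp5, KO replicate 1 and WT replicate 3, r was 0.917. Taken as deviations from the group means, r was 0.983, and without KO replicate 1 it was 0.956 (adjusted exact permutation p = 0.133, where 5 libraries let a single relation reach 0.0667 at the least). The relation was thus as close within the groups as across them.

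Of the 6 further relations tested with Fkbp5, none passed after adjustment. Zbtb16 had r = 0.692 and rho = 0.943 (adjusted exact permutation p = 0.174 and 0.0667), and r was 0.821 without the same 2 libraries. Plin4 had r = 0.858 and rho = 0.771 (adjusted exact permutation p = 0.0806 and 0.206), and Sgk1 had r = 0.805 and rho = 0.6 (0.0806 and 0.322). Their r was 0.556 and 0.394 without the 2 farthest libraries, so both rested in part on them. Cdkn1a had r = 0.724 and rho = 0.771 (adjusted exact permutation p = 0.174 and 0.206), and r was -0.0349 without these libraries. The receptors ran the other way: Nr3c1 had r = -0.828 and rho = -0.714 (adjusted exact permutation p = 0.0806 and 0.218) with r = -0.612 without them, and Nr3c2 had r = -0.535 and rho = -0.314 (0.337 and 0.644) with r = -0.589.

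Btg1 was the remaining relation. It counts among the 8 of the adjustment, but its p is not given because the gene was chosen on these libraries. Its r with Fkbp5 was 0.325 and its rho 0.257, and r was -0.521 without the 2 farthest libraries and 0.0544 over deviations from the group means. In WT, the library with the most Fkbp5, replicate 2 at 34.0 CPM, had the least Btg1, at 13.5 CPM, and the library with the least Fkbp5, replicate 3 at 19.1 CPM, had the most, at 18.8 CPM. In KO the order was the same for both genes. KO replicates 1, 3 and 2 had 50.5, 31.9 and 21.8 CPM of Fkbp5 and 28.3, 22.1 and 21.9 CPM of Btg1.

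**Figure D3:**
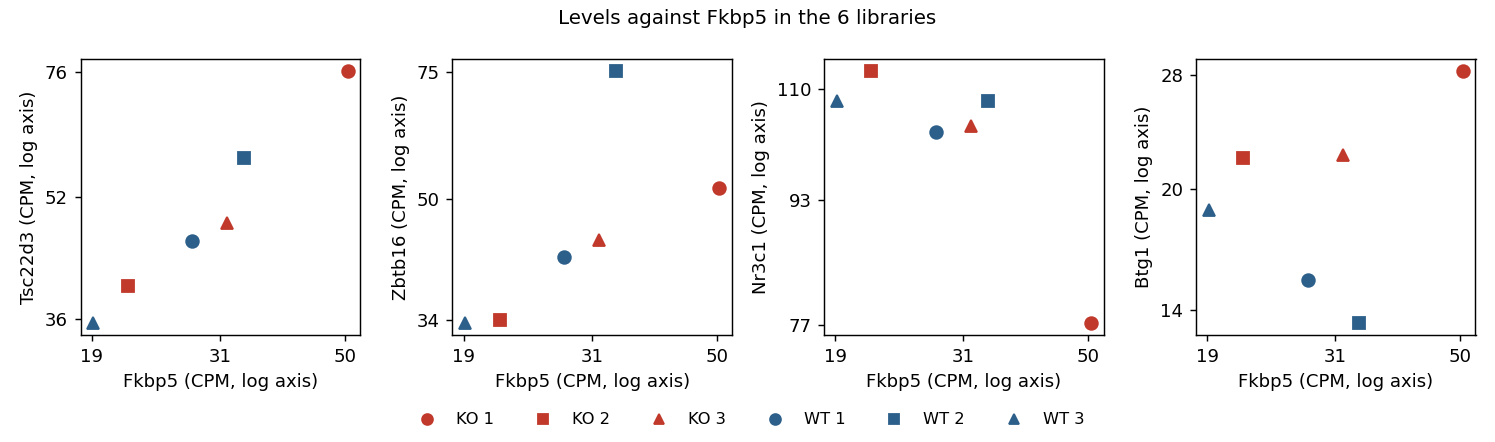
Level of Tsc22d3, Zbtb16, Nr3c1 and Btg1 against that of Fkbp5, in CPM on log axes, with colour for the group and symbol for the replicate. Tsc22d3 lies along a line through both groups (r = 0.982), Nr3c1 is lowest where Fkbp5 is highest, and Btg1 shows KO above WT with no common line (r = 0.325).

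Other genes known to be induced by glucocorticoids, 24 in a list written by function, were also mostly at their highest in KO replicate 1. KO replicate 1 was the highest library for 15 of 24, against 22.1% of all genes. With libraries scaled by totals alone this was 17 of 24, against 24.7% of all genes. KO replicate 1 was above the mean of the other 5 for 21 of 24, with a median gap of 0.43 log2 units, against a median of 0.01 over all genes. Their log2 fold changes were above 0 for 22 of 24 with a median of 0.14, against 51.9% of all genes and a median of 0.01. Without KO replicate 1 this was 14 of 24 with a median of 0.02, against 51.3% of the genes then tested. Without WT replicate 1 it was 17 of 24. All 10 olfactory bulb markers were above 0 with a median of 1.40. Without KO replicate 1 this was 9 of 10 with a median of 0.49, and without WT replicate 2 it was 10 of 10 with a median of 0.74. The part of these markers' tissue in the values of the induced genes was not tested. By unadjusted p under 0.05 there was 1 such gene of 24, Per1, against 7.82% of all genes, and after adjustment none.

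Some of these genes had a wide gap between KO replicate 1 and the rest. For 5 of 24 (20.8%) that library exceeded the mean of the others by at least 1 log2 unit, against 4.65% of all genes. These were Hif3a, Angptl4, Cebpd, Sult1a1 and Arrdc2. Hif3a, Angptl4 and Mt2, whose gap was 0.86, were picked for description after their values were seen. Hif3a, a hypoxia-inducible factor subunit, had 29.2, 6.37 and 15.8 CPM in the KO libraries against 12, 13.2 and 6.91 CPM in the WT libraries. Angptl4, a secreted inhibitor of lipoprotein lipase, had 6.69, 1.34 and 2.81 CPM in the KO libraries against 3.29, 2.46 and 2.12 CPM in the WT libraries. Mt2, a metal-binding metallothionein, had 57.1, 28.3 and 37.4 CPM in the KO libraries against 37.5, 25.1 and 30.4 CPM in the WT libraries. In each of the 3, KO replicate 2 lay within or below the WT range.

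Sult1a1, a phenol sulfotransferase, had 15.7, 5.53 and 8.59 CPM in the KO libraries against 6.66, 5.98 and 6.59 CPM in the WT libraries, a log2 fold change of 0.55 (SE 0.31) and 0.11 (SE 0.21) without KO replicate 1. Arrdc2, an arrestin domain protein, had 16.6, 8.46 and 8.12 CPM in the KO libraries against 7.45, 8.10 and 7.77 CPM in the WT libraries, with 0.46 (SE 0.25) and 0.09 without KO replicate 1. Both again had their high value in KO replicate 1. Per1, a clock repressor that is also a direct receptor target, was among the 9 genes not highest in KO replicate 1: it had 119, 130 and 133 CPM in the KO libraries against 97.7, 117 and 118 CPM in the WT libraries, so that KO replicate 1 was the lowest KO library. Its log2 fold change was 0.20 (SE 0.08, adjusted p = 0.635, limma-voom) and 0.25 without KO replicate 1, but 0.11 without WT replicate 1. Besides Per1, Arrdc2 and Rhob were the only genes of the list whose KO and WT libraries did not overlap, at 3 of 24 with KO higher, against 6.72% of all genes.

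Part of these genes also shared the order of the libraries other than KO replicate 1. In the other 5, Fkbp5 ran from WT replicate 2 down through KO replicate 3, WT replicate 1 and KO replicate 2 to WT replicate 3. Exactly this order was found for 2 of the other 8 genes, Tsc22d3 and Zbtb16, and for 2 of the 24 listed genes, Klf9 and Klf15, against 135 of 19083 genes (0.707%). Klf9, a Krüppel-like factor induced by glucocorticoids and thyroid hormone, was at 258 CPM in WT replicate 2, 229 in KO replicate 3, 221 in WT replicate 1, 187 in KO replicate 2 and 183 in WT replicate 3. Klf15, a factor of the same family that controls amino acid metabolism, went from 20.6 through 19.8, 18.3 and 17.8 to 15.6 CPM in the same libraries. KO and WT libraries alternated in this order. It was noticed in these data and is a description of 5 libraries.

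**Figure D4:**
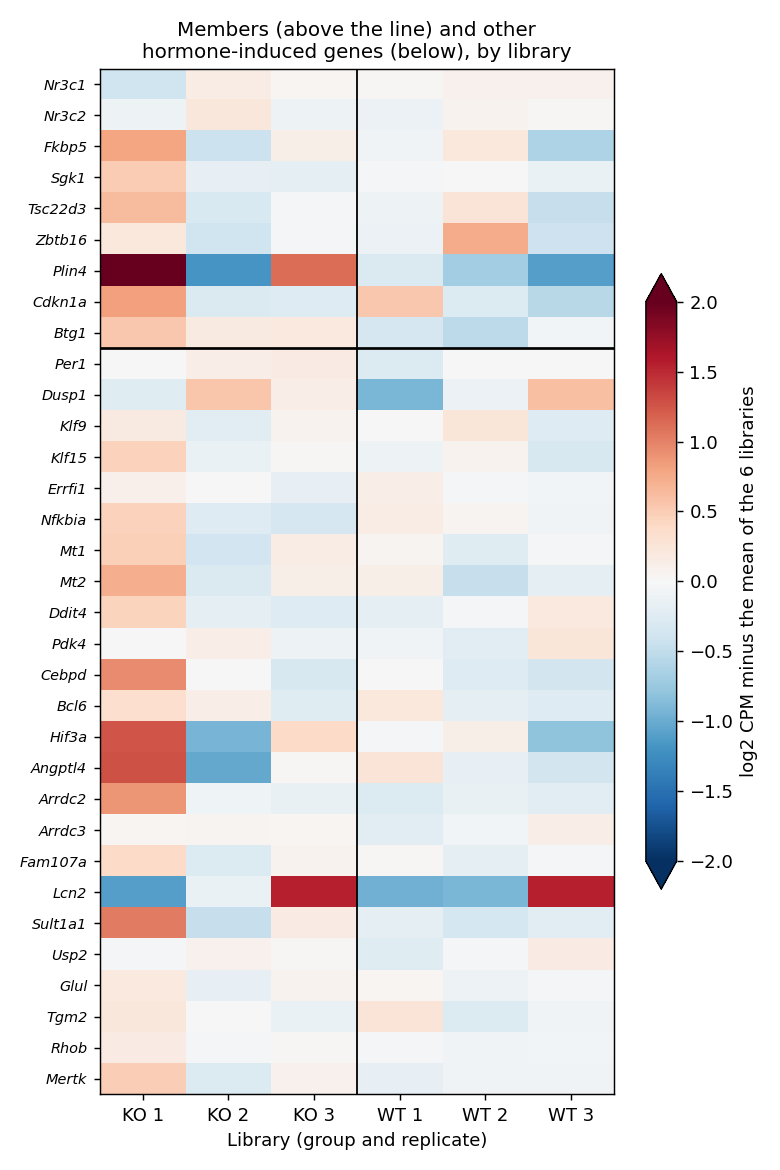
Log2 CPM of each gene minus its mean over the 6 libraries (colour scale, cut at 2 units on either side), with the 9 genes above the horizontal line and the 24 other hormone-induced genes below it, and the libraries in columns. KO replicate 1 is the reddest column, being the highest library for 6 of 9 and 15 of 24 genes, against 22.1% of all genes. The Btg1 row is red in all KO columns.

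Chaperones that hold the unbound receptor had lower fitted levels in KO, without passing the test. Each of the 8 listed had a log2 fold change below 0, against 48.1% of all genes, with a median of -0.15, and all 8 were below 0 in each of the 17 alternatives, where the median was -0.12 without KO replicate 1 and -0.08 without WT replicate 1. At an unadjusted p under 0.05 there were 3 of them, against 7.82% of all genes, and at an adjusted p under 0.05 none. Without KO replicate 1 there was 1 at an unadjusted p under 0.05, against 830 of the 18701 genes then tested. Of the neuron markers, all 8 cortical excitatory ones were below 0 (median -0.19), but without KO replicate 1 the median was -0.06 and 2 of 8 were above 0. The 8 general neuron markers summed to 7020 to 7040 CPM in KO and 7100 to 7830 CPM in WT, with 3 of 8 above 0 and a median of -0.06. The median deviation of the chaperones was -0.09, -0.03 and -0.08 log2 units in KO replicates 1 to 3 and 0.19, 0.08 and -0.06 in WT replicates 1 to 3. For the cortical excitatory markers the KO replicates had -0.34, -0.05 and 0.02 and the WT replicates 0.11, 0.16 and -0.01. Both lists were thus highest in WT replicates 1 and 2 and lowest in KO replicate 1, where they differed in size. No marker of either list was at 0, and their part in the chaperone values was not tested. Hspa8, the constitutive heat shock cognate protein, had 727, 714 and 744 CPM in the KO libraries against 964, 856 and 725 CPM in the WT libraries. Its log2 fold change was -0.21 (SE 0.09, adjusted p = 0.635, limma-voom), and -0.11 without WT replicate 1 and -0.32 without WT replicate 3. Hsp90ab1, the constitutive HSP90 chaperone, had -0.16 (SE 0.07), and Stip1, which links HSP70 to HSP90, had -0.19 (SE 0.08), or -0.12 without WT replicate 1. WT replicate 1 was the highest library for 6 of the 8, against 18.8% of all genes, and WT replicate 2 for the other 2, against 18.4%. WT replicate 3 overlapped the KO values in these 3 genes.

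Among 11 receptor coregulators, 7 were above 0, against 51.9% of all genes, and the median was 0.01. Ncoa3, a steroid receptor coactivator, separated the groups with little spread: KO libraries had 68.5, 69.3 and 67.4 CPM against 56.8, 55.7 and 59.5 CPM for WT libraries. Its log2 fold change was 0.25 (SE 0.07) with all libraries and 0.25 without KO replicate 1, and it did not pass adjustment (adjusted p = 0.635, limma-voom). Med1, a Mediator subunit that contacts nuclear receptors, had 0.11 (SE 0.07), or 0.06 without WT replicate 1. Groups that do not overlap with KO higher were thus seen in Ncoa3 and Med1, 2 of 11, against 6.72% of all genes.

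Genes that make or move the hormone within the brain gave small values. Of 4 tested of 6 listed, 1 was above 0, against 51.9% of all genes, and the median was -0.08. Hsd11b1, which regenerates active corticosterone in tissue, had 6.35, 6.03 and 7.03 CPM in the KO libraries against 6.27, 9.17 and 7.77 CPM in the WT libraries, with a log2 fold change of -0.24 (SE 0.17), or -0.11 without WT replicate 2. Srd5a1, a steroid 5-alpha reductase, had -0.13 (SE 0.17) and -0.01 without WT replicate 2, and Abcb1a, an efflux pump at the blood-brain barrier, had 0.03 (SE 0.11). Hsd11b2 and Serpina6 were below the filter.

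The CRH system, which drives the hormone's release and also acts locally in cortex, had 5 of 7 genes tested. Of these, 3 were above 0, against 51.9% of all genes. The median was 0.23, or 0.13 without KO replicate 1. Crhr1, the main CRH receptor of forebrain, had 30.7, 24.8 and 25.6 CPM in the KO libraries against 24.4, 20.5 and 24.3 CPM in the WT libraries. The groups did not overlap, as in 1 of the 5 genes against 6.72% of all genes with KO higher, and the log2 fold change was 0.23 (SE 0.11, adjusted p = 0.637, limma-voom) and 0.13 without KO replicate 1. Crhr2 had 0.47 (SE 0.33), or 0.21 without KO replicate 1. Crh itself had 9.87, 3.35 and 3.05 CPM in the KO libraries against 5.64, 2.37 and 2.59 CPM in the WT libraries, so the 2 replicates numbered 1 were the highest of each group. Its log2 fold change was 0.56 (SE 0.45) and -0.04 without KO replicate 1.

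Genes that glucocorticoids repress were fewer. Of 8 listed, 5 were tested, and 1 was above 0, against 51.9% of all genes. The median was -0.22, or -0.05 without KO replicate 1. Bdnf, a neurotrophin, had 23.6, 24.0 and 26.4 CPM in the KO libraries against 38.0, 30.6 and 24.1 CPM in the WT libraries, with a log2 fold change of -0.30 (SE 0.14, adjusted p = 0.636, limma-voom) and -0.14 without WT replicate 1, its highest library, and -0.48 without WT replicate 3. WT replicate 3 lay within the KO values. Pomc, at or below 1.10 CPM in every library, had -0.48 (SE 0.45), or -0.25 without KO replicate 3. The cytokine genes Il1b, Tnf and Ccl2 were below the filter.

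**Figure D5:**
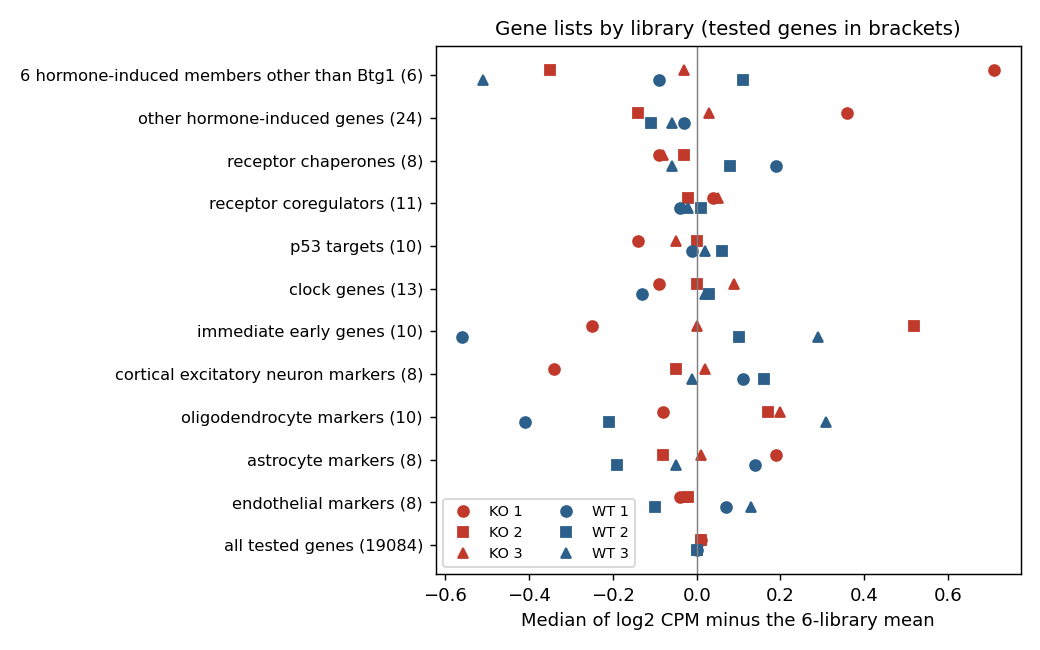
Median over the genes of a list of log2 CPM minus the 6-library mean (horizontal axis), for each library, with the number of tested genes in brackets. KO replicate 1 is at 0.71 for the 6 hormone-induced genes of the set and at 0.36 for the 24 others, to the right of the other 5 libraries in both, while all tested genes lie near 0.

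Paralogs of the 9 genes did not show a common direction, with 9 of 16 tested above 0, against 51.9% of all genes, and a median of 0.07. Cdkn1b, the p27 inhibitor related to Cdkn1a, had 46.6, 45.6 and 44.7 CPM in the KO libraries against 37.1, 39.8 and 41.3 CPM in the WT libraries. Its KO and WT libraries did not overlap, as in 1 of the 16 paralogs against 6.72% of all genes, with a log2 fold change of 0.21 (SE 0.08, adjusted p = 0.635, limma-voom) and 0.20 without KO replicate 1. Tsc22d1 had -0.11 (SE 0.06). Btg2, the nearest relative of Btg1 and an immediate early gene, was named for that relation after its values were seen: it had 14.7, 39.8 and 14.9 CPM in the KO libraries against 8.62, 14.3 and 35.3 CPM in the WT libraries, with no separation of the groups.

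Targets of p53, listed because Cdkn1a is one, had 7 of 10 tested below 0, against 48.1% of all genes, and a median of -0.06. Without WT replicate 2, 5 of 10 were below 0 (median -0.04), and without WT replicate 1, 8 of 10 (median -0.16). The 3 of 10 with an unadjusted p under 0.05, against 7.82% of all genes, were below 0: Phlda3 at -0.30 (SE 0.13), Gadd45a at -0.38 (SE 0.17) and Zmat3 at -0.18 (SE 0.08, -0.08 without KO replicate 1), each with adjusted p of 0.635 or 0.636 in limma-voom. In all 3 the KO libraries lay below the WT libraries, a pattern found for 1200 of all genes tested (6.29%). Without KO replicate 1, 0 of the 10 had an unadjusted p under 0.05, against 830 of the 18701 genes then tested. Phlda3 was then at -0.21 and Gadd45a at -0.35. Cdkn1a had 0.21, but -0.18 without KO replicate 1 and -0.02 without WT replicate 3.

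Clock genes, which share targets with the receptor, had 9 of 13 above 0, against 51.9% of all genes, and a median of 0.06. Npas2, a partner of BMAL1, had a log2 fold change of -0.17 (SE 0.07), with KO libraries below WT, as in 1 of the 13 genes against 6.29% of all genes. KO libraries were above WT in 1 of the 13, Per1, against 6.72% of all genes, and Per2 had -0.19 (SE 0.10), or -0.07 without WT replicate 1. Immediate early genes, which respond to neuronal activity and handling, had 8 of 10 above 0 (median 0.16), against 51.9% of all genes. This was 3 of 10 without KO replicate 2 (median -0.09) and 2 of 10 without WT replicate 1 (median -0.15). Nr4a1 had 0.32 (SE 0.17) and 0.12 without WT replicate 1, Dusp1 had 0.27 (SE 0.29) and -0.12 without it, and Egr1 had -0.16 (SE 0.11) and -0.05 without WT replicate 2. The library order of the immediate early genes was unlike that of Fkbp5: KO replicate 1 had a median deviation of -0.25 log2 units from the 6-library mean, against 0.52 in KO replicate 2. Striatal markers lay high and low in some of the same libraries, with median deviations of 0.61 in KO replicate 2, 0.44 in WT replicate 3 and -0.55 in WT replicate 1, against 0.52, 0.29 and -0.56 for the immediate early genes. In WT replicate 2 they differed, at -0.63 for the striatal markers and 0.10 for the immediate early genes, and in KO replicate 1 the values were 0.02 and -0.25. All 10 striatal markers were above 0 (median 0.36), none was at 0 CPM in every library, and their part in the values of the immediate early genes was not tested. Over the 10 pathway lists, 101 of 112 genes were tested, 10 had an unadjusted p under 0.05, against 7.82% of all genes, and none passed adjustment.

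The genes whose levels over the 6 libraries were most like those of Btg1 were Syne2 (Pearson's r = 0.999), Cnot6 (0.998), Zfp516 (0.995), Sppl2a (0.994) and Pantr2 (0.993), out of 15203 genes whose log2 CPM averaged 0 or more. Plin4, the nearest of the 8 other genes, ranked 2468 with r = 0.645, and Nr3c1 was the farthest at rank 12400 with r = -0.622. The genes most like Fkbp5 were Zfp384 (0.991), Spink10 (0.986), Ash2l (0.985), Fam213a (0.985) and Iqsec3 (0.983), and Tsc22d3 came sixth at rank 6. Plin4 ranked 234, Sgk1 398, Cdkn1a 757 and Zbtb16 923, whereas Btg1 ranked 3971. These ranks rest on 6 libraries that share their depth and scaling and describe likeness of levels only.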

How the data were processed

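Polyadenylated RNA of 6 prefrontal cortex samples was made into stranded libraries (TruSeq Stranded mRNA kit). The deposited values are raw counts of fragments per gene, which the authors obtained by alignment with STAR (2.7.9a per the submitters' processing notes) and, per the file headers, counting over exons with featureCounts 1.6.0 in paired, reverse-stranded mode on the GENCODE M31 annotation of GRCm39. The methods of the study name mm10 and GENCODE M18 instead, and coordinates are those of the files. Groups and replicate numbers came from the sample titles. Nothing states that fragments from several places were counted, so near-identical copies may be undercounted.

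Genes with at least 6 fragments in at least 1 library were kept. Scaling used TMM factors (a trimmed mean of log ratios) from edgeR 4.0.16. The two-sided contrast of KO against WT was fitted without covariates in limma 3.58.1 with voom weights (R 4.3.3), p-values were adjusted for all 19084 genes by Benjamini-Hochberg, and calls were made at 0.05. Library totals of 11792463 to 14594230 fragments limit the precision of low genes. CPM are after TMM scaling, correlations used log2 CPM with a prior count of 0.5, and intervals are at 95%. The labels do not say that the samples come from separate animals, so p-values measure only the spread between these samples, which may be technical.

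The 9 genes, the gene lists and the tests were chosen with earlier results of these data known. Named were the 9 genes and Pla2g4e, up to 3 genes of lowest unadjusted p in each of 10 pathway lists, and 5 genes each most like Btg1 and Fkbp5. Some genes that this rule names are not reported here. The 9 lists of cell markers are given by sums where they bear on a result. A list of 10 olfactory bulb markers was added after genes called with Y-linked expression as a covariate were seen, and it was given no test. Alternatives were edgeR's quasi-likelihood test, DESeq2 1.42.0, other scalings and filters, library weights, a replicate block, Y-linked expression as a covariate or as a subset, and each library left out. On simulated data of 18501 genes with 200 changed in KO against WT, limma-voom recovered 98% of 2-fold and 99% of 4-fold changes, and of 215 calls 8.37% were unchanged genes. The changed genes were drawn only from those above a minimum mean level, with independent noise and no library set apart. These shares do not carry over to low genes, to smaller changes or to a library set apart, as KO replicate 1 was. Promoter windows came from RefSeq tables.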

Additional observations from a re-analysis of the deposited data

How the results depend on the processing

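None of the 8 genes of the set other than Btg1 passed the adjusted threshold in any of the 17 alternatives. Btg1 kept its direction in all of them, but it was selected on this contrast, so nothing is read from that. The number of genes past that threshold, 0 in limma-voom and in edgeR's quasi-likelihood test, was 1 in DESeq2 (with 902 at an unadjusted p under 0.05), 21 with Y-linked expression as a covariate (20 higher in KO, 6 of them olfactory bulb markers) and 3 in the 4 libraries with Y-linked expression (with 696 at an unadjusted p under 0.05). In those 4 libraries the log2 fold changes of Abcb1a (-0.07), Nr3c1 (0.00), Sgk1 (-0.12) and Tsc22d3 (-0.05) no longer had the sign of the full fit. The cause was not tested.

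Leaving out each library in turn gave 0 to 1 genes past the adjusted threshold and 782 to 2239 at an unadjusted p under 0.05, with 830 without KO replicate 1, 782 without WT replicate 2 and 2239 without WT replicate 3. The other hormone-induced genes above 0 numbered 14 to 22. Log2 fold changes that turned were those of Abcb1a (-0.04 to 0.15), Cdkn1a (-0.18 to 0.54), Crh (-0.04 to 0.96), Nr3c1 (-0.26 to 0.02), Sgk1 (-0.14 to 0.23), Tsc22d3 (-0.06 to 0.41), Nr3c2 (-0.10 to 0.07), Zbtb16 (-0.38 to 0.20) and Dusp1 (-0.12 to 0.65). The correlation with Fkbp5 ran from 0.956 to 0.994 for Tsc22d3, which passed adjustment in 1 of these 6 fits (without WT replicate 2, adjusted exact permutation p = 0.0333), since a single relation over 5 libraries cannot go below 0.0667 unless others pass with it, from -0.435 to 0.627 for Btg1, from 0.583 to 0.981 for Zbtb16 and from 0.642 to 0.963 for Plin4, the last 2 also passing adjustment without WT replicate 2.

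Deviations of same-numbered libraries correlated with r = 0.23 for the replicates numbered 1, and with 0.0452 and -0.0158 for the other two numbers, so the numbers as a whole were not read as pairs. With the replicate number as a block, 0 genes passed adjustment and 1693 had an unadjusted p under 0.05. Of the genes at an unadjusted p under 0.05, 56.0% were higher in KO with TMM, 71.9% with library totals alone, 45.9% without WT replicate 3 and 48.7% in DESeq2. Plin4, Crhr2 and Pomc had few fragments, which limits their precision.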
